A study of Mus musculus with 6 samples.

Results

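Long intergenic noncoding RNAs (lincRNAs) were compared between mouse CD4+ T cells cultured with and without idelalisib, a drug that blocks PI3K delta, a lipid kinase that signals below the T cell receptor. The cells came from spleens of C57BL/6 mice and were held under Th1 conditions for 72 h, which favour interferon gamma producing helper cells. There were 3 control libraries without the drug and 3 idelalisib libraries, all from bulk poly(A) RNA. The sources used here do not give the dose or any solvent in the control cultures. The labels call the libraries biological replicates without saying that they came from separate mice, so p-values cover the culture-to-culture spread alone, and it may be technical.

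The RNAs described here were chosen by measured values. A gene was a member if the authors' table gave its biotype as lincRNA and its mean level over all 6 libraries was at least 1 CPM (the count over its library's total, times 1e6). Ifngas1, Gas5 and RNAs named Snhg, 4 in all, were dropped by name. This left 261 members among 5559 lincRNA rows and 54532 genes. The choice used the mean over both groups and not the difference between them. Just inside the threshold were 1700063D05Rik at 1.003, Gm26668 at 1.009 and 4833418N02Rik at 1.01 CPM, and just outside were Gm26884 at 0.9804, Gm44066 at 0.9785 and Platr23 at 0.9776 CPM.

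LincRNAs are RNA polymerase II transcripts without a long open reading frame. Some, such as Malat1 and Neat1, act in nuclear bodies. Others are precursors of microRNAs, act on a gene next to them or have no known role. Many are expressed in a cell type-specific way, and activated T cells change a large set of them.

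The label lincRNA fitted the members unevenly. Of the 261, 233 carry only a clone-type name (Gm, Rik or an accession-like name). RefSeq, matched by symbol or identifier for 145, lists 130 as long noncoding RNA, 4 as pseudogenes and 11 as protein-coding. The 11 include 1810058I24Rik and Gm26637. Although the biotype means intergenic, the span of 140 members overlapped another gene of the table and that of 121 did not. The sources used here do not give the strand setting of the authors' counting, so the reads of genes that overlap on opposite strands cannot be told apart. In 20 members, whether or not they overlap another gene, at least 20% of the 31-base words were also found in other genes. Words were compared only with genes that do not overlap the member, taken all together. Among the 20 was Gm10076, with 84.2% shared with the ribosomal protein gene Rpl41 or other entries. The counts of all 20 are uncertain.

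Library totals ran from 13372318 to 16770452 counts. Members took 0.78%, 0.807% and 0.95% of all counts in control and 0.601%, 0.732% and 0.495% with idelalisib. The 3 most abundant members held 49.8% to 71.7% of these counts. Without Malat1, Gm42047 and Gm26917 the shares were 0.266%, 0.26% and 0.269% in control and 0.282%, 0.277% and 0.251% with idelalisib, and the ranges of the groups overlapped. Over members, the correlation of log2 CPM was 0.968 to 0.982 between libraries of 1 group and 0.893 to 0.906 between libraries of different groups. From here on, CPM are scaled with TMM factors, which correct for composition.

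With idelalisib 71 members rose and 43 fell, and 147 were not called either way. A call is an adjusted p under 0.05 in edgeR's quasi-likelihood test with Benjamini-Hochberg adjustment over all 14530 genes tested, and every adjusted p below comes from it unless another tool is named. The called share of members was 43.7%, beside 44.6% of all genes tested. Members that rose made up 27.2%, beside 22.2% of all genes, and members that fell 16.5%, beside 22.4%. The median log2 fold change (idelalisib over control) was 0.28 over members, 0.009 over all genes tested and 0.038 over the 11926 protein-coding genes tested. Changes of at least 1 on the log2 scale were seen in 37 of the members that rose and 29 of those that fell. No matching share over all genes is given, so nothing particular to members is read from these counts. The CPM of the groups did not overlap for 147 members, or 56.3%, beside 54.6% of all genes. The share called in either direction and the share without overlap lay near the background.

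The level threshold acts on this comparison. A mean of at least 1 CPM was reached in both groups by 211 members, with idelalisib only by 37 and in control only by 13. Members of the last kinds were let in by the group in which they are high. Of the 37, 23 rose and 0 fell, and of the 13, 7 fell and 0 rose. Over the 211, 48 rose (22.7%, beside 22.2% of all genes tested) and 36 fell (17.1%, beside 22.4%). The share of the 211 that rose thus lay near the background. Their median log2 fold change was 0.19. Precision was limited by depth, since 176 members lay under 5 CPM and 49 at or above 10 CPM. The median standard error (SE) of the log2 fold change was 0.285 for members and 0.134 for all genes tested.

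**Figure D1:**
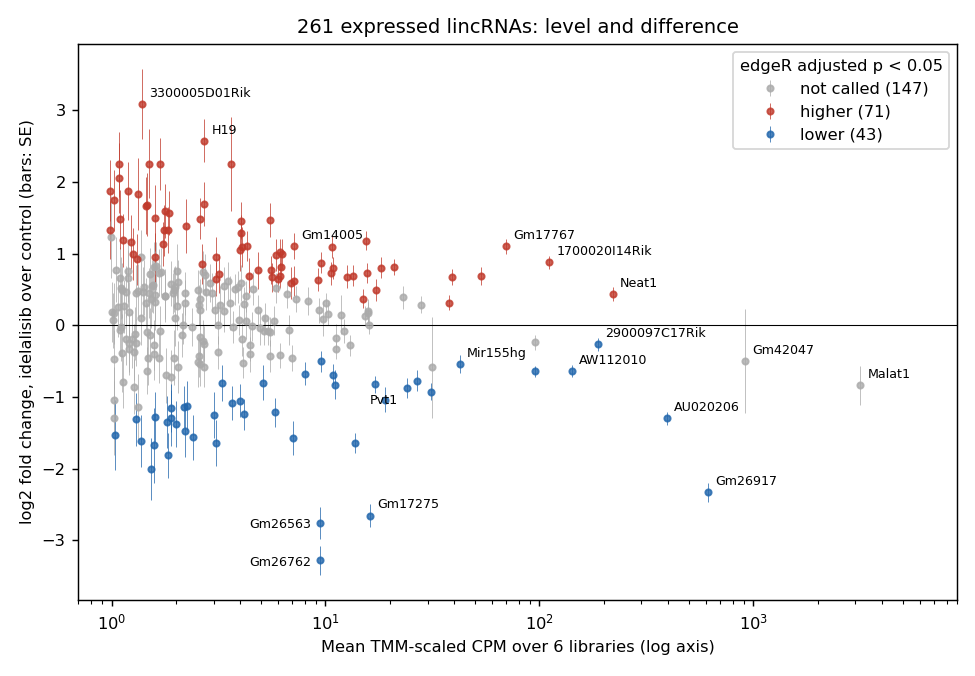
Mean TMM-scaled CPM over the 6 libraries (log axis) against the log2 fold change of idelalisib over control for the 261 members, with bars for the SE. Red points (71) rose, blue points (43) fell and grey points (147) were not called, and Gm26917, AU020206 and AW112010 are abundant members that fell.

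A list of 8 RNAs, headed nuclear body and nuclear-retained RNAs, held 4 members that did not move together. Of these 4, 2 rose, 1 fell and 1 was not called. Where these RNAs lie in the cell was not measured, and the heading need not hold for each of them. Malat1, a nuclear speckle RNA and the most abundant member per length, lies on the minus strand at chr19:5795690-5802672 (mm10). Malat1 stood at 3893, 3368 and 4879 CPM in control and at 2522, 2758 and 1504 CPM with idelalisib. Every control library was above every idelalisib library, yet the spread within groups was wide. The log2 fold change of Malat1 was -0.84 ± 0.27 (SE) with an adjusted p of 0.0573, so it was not called. The call depended on the method and on single libraries: the adjusted p was 0.0131 in DESeq2, 0.00288 in limma-voom, 0.034 without control replicate 2 and 0.0475 without idelalisib replicate 3, and over all alternatives it reached 0.185.

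Neat1, the RNA scaffold of paraspeckles, is the neighbour of Malat1 on the same strand, at chr19:5824708-5845478. Neat1 counted 199, 172 and 191 CPM in control and 286, 222 and 252 CPM with idelalisib. All idelalisib libraries were higher, by a log2 fold change of 0.44 ± 0.097 (adjusted p = 0.00233). In these libraries the neighbours therefore had differences of opposite sign, of which that of Neat1 passed the test.

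1700020I14Rik, which has the synonym Oip5os1 and is also known as Cyrano, is a conserved RNA with a near-perfect site that directs the decay of a microRNA. The levels of 1700020I14Rik were 74.3, 78.5 and 82.2 CPM in control and 146, 158 and 128 CPM with idelalisib. The groups lay far apart, and the rise was 0.88 ± 0.092 on the log2 scale (adjusted p = 5.52e-06), or 1.84-fold. The nearest tested protein-coding gene, Nusap1, a mitotic spindle protein gene that starts 24001 bases away on the same strand, rose by 0.77 on the log2 scale.

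2900097C17Rik, the mouse Norad, binds Pumilio proteins that repress mRNAs of mitosis and DNA repair. 2900097C17Rik held 192, 202 and 221 CPM in control and 176, 178 and 157 CPM with idelalisib. The groups did not overlap but lay close, with a log2 fold change of -0.27 ± 0.085 (adjusted p = 0.0198). This call was lost with scaling by library size alone (adjusted p = 0.295), without control replicate 2 (0.052) and without control replicate 3 (0.117). It shared 44.7% of its words with other entries of the annotation.

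The list of RNAs of T cells and immune cells, with 23 names that include both Gm14005 and its synonym Morrbid, held 6 members. Of these 6, 2 rose, 2 fell and 2 were not called. AW112010, on chromosome 19 at 11047617-11050566 on the minus strand, is induced by interferon and encodes a short protein from a non-canonical reading frame in mouse immune cells. AW112010 was at 166, 185 and 168 CPM in control and at 103, 117 and 114 CPM with idelalisib. Each idelalisib library was lower, and the fall was 1.56-fold (log2 fold change -0.64 ± 0.084, adjusted p = 3.87e-05).

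Gm14005 is the mouse Morrbid, an RNA known to restrain the proapoptotic gene Bcl2l11 in short-lived myeloid cells and in T cells. Its 3 control libraries had 4.07, 4.36 and 5.15 CPM and the idelalisib libraries 10.3, 9.63 and 9.26 CPM. Gm14005 rose 2.15-fold in libraries that did not overlap (log2 fold change 1.11 ± 0.18, adjusted p = 1.97e-04). Bcl2l11 itself had 143 ± 1.15 CPM in control and 147 ± 15.8 CPM with idelalisib (SD, n = 3) and was not called (adjusted p = 0.749).

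Mirt1 and Gm2682 were the immune RNAs without a call. Mirt1 had 9.32, 9.38 and 7.36 CPM in control and 12.2, 8.5 and 9.38 CPM with idelalisib (adjusted p = 0.367). Gm2682 had 10.1, 9.64 and 13.9 CPM in control and 11.9, 17.8 and 7.7 CPM with idelalisib (adjusted p = 0.697). In both the groups overlapped.

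Among microRNA host genes, 3 of 24 listed were members: Mir142hg and Mir17hg rose, and Mir155hg fell. MicroRNAs pair with their target mRNAs through the seed, bases 2 to 8. Some of the mature products encoded in these hosts are shown because they are what the hosts are known for. RefSeq places 11 mature products in Mir17hg, 2 in Mir142hg and 2 in Mir155hg. Their levels were not measured, since poly(A) libraries report the host transcript only. The sequences are from RefSeq (GRCm38.p6), 5′ to 3′ with the seed in capitals.
mmu-miR-155-5p (Mir155hg): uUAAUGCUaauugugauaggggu
mmu-miR-142a-5p (Mir142hg): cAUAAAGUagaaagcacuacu
mmu-miR-142a-3p (Mir142hg): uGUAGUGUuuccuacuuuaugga
mmu-miR-17-5p (Mir17hg): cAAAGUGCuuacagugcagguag
mmu-miR-20a-5p (Mir17hg): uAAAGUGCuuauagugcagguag
mmu-miR-18a-5p (Mir17hg): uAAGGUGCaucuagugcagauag
mmu-miR-19a-3p (Mir17hg): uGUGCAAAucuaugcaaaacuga
mmu-miR-19b-3p (Mir17hg): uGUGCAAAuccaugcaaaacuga
mmu-miR-92a-3p (Mir17hg): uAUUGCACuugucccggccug

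Within Mir17hg, miR-17-5p and miR-20a-5p share the seed AAAGUGC, and miR-19a-3p and miR-19b-3p share the seed GUGCAAA. The seeds of miR-155-5p and of both miR-142a products are shared with no other mature microRNA inside a member, members on chromosome 18 left aside.

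Mir155hg is the precursor of miR-155, which lymphocytes induce on activation and which supports Th1 responses. Mir155hg held 54.9, 43.7 and 52.6 CPM in control and 30, 41.7 and 32.1 CPM with idelalisib. The highest idelalisib library came close to the lowest control library without overlap. The fall was 1.46-fold (log2 fold change -0.54 ± 0.13, adjusted p = 0.00338).

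Mir142hg, the precursor of the blood cell microRNA miR-142, had 15.1, 13.1 and 14.6 CPM in control and 24.9, 16.9 and 18.2 CPM with idelalisib. It was higher in every idelalisib library, by a log2 fold change of 0.49 ± 0.15 (adjusted p = 0.0192). The call was lost without control replicate 2 (adjusted p = 0.0797), control replicate 3 (0.0506) or idelalisib replicate 1 (0.106), and without the latter the log2 fold change was 0.31.

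Mir17hg carries the miR-17-92 cluster, a driver of lymphocyte growth and a known target of Myc. Mir17hg had 6.69, 5.48 and 4.22 CPM in control and 6.98, 10.7 and 7.17 CPM with idelalisib, and the closest libraries nearly met. The log2 fold change was 0.59 ± 0.22 with an adjusted p of 0.0448, near the threshold. It was not called in limma-voom (adjusted p = 0.0579), without control replicate 2 (0.0986), without control replicate 3 (0.174, log2 fold change 0.44) or without idelalisib replicate 2 (0.157, log2 fold change 0.37).

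By position, 7 more members held a mature microRNA of the RefSeq table: H19, Ftx, 4833445I07Rik, 6720427I07Rik, AL805899.1, 2900076A07Rik and Gm37233. Of these 7 members, 3 rose (H19, 4833445I07Rik and Gm37233), beside 22.2% of all genes tested, and the others were not called. H19 and 4833445I07Rik reached 1 CPM in the idelalisib group only. The threshold thus let both in through the group in which they are high. The call of Gm37233 was lost without idelalisib replicate 1 (adjusted p = 0.0517). 4833445I07Rik, named after its values were seen, spans miR-191 and miR-425 on chromosome 9. It had 0.751, 0.594 and 0.715 CPM in control and 1.65, 1.84 and 1.25 CPM with idelalisib, without overlap (log2 fold change 1.19 ± 0.37, adjusted p = 0.0179). Its call was lost without control replicate 2 (adjusted p = 0.069), control replicate 3 (0.0506) or idelalisib replicate 2 (0.0556). The 5′ arms of its hairpins are given to show that their seeds differ.
mmu-miR-191-5p (4833445I07Rik): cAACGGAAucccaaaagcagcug
mmu-miR-425-5p (4833445I07Rik): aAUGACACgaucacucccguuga

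The list for p53, the cell cycle and survival, with 15 names that again include both Gm14005 and Morrbid, held 6 members. Of these 6, 2 rose, 3 fell and 1 was not called. Pvt1, a long locus next to Myc that is known to affect its expression, had 31.8, 27.3 and 34 CPM in control and 17.3, 20 and 13.5 CPM with idelalisib. Pvt1 fell 1.84-fold with clearly separate groups (log2 fold change -0.88 ± 0.14, adjusted p = 2.43e-04). Myc, which starts 52595 bases from Pvt1, had 222 ± 17 CPM in control and 258 ± 18.4 CPM with idelalisib (SD, n = 3) and was not called (adjusted p = 0.053).

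Lncpint, a p53-induced RNA that works with Polycomb proteins, was measured at 15.6, 12.4 and 14.4 CPM in control and at 10.5, 7.93 and 5.49 CPM with idelalisib. It was lower in all idelalisib libraries, by 1.78-fold (log2 fold change -0.83 ± 0.20, adjusted p = 0.00441). Epb41l4aos, on chromosome 18, had 36.3, 42.3 and 43.7 CPM in control and 24.1, 18.8 and 21.3 CPM with idelalisib. Epb41l4aos fell 1.9-fold, again without overlap (log2 fold change -0.93 ± 0.12, adjusted p = 3e-05).

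Lockd lies downstream of Cdkn1b, the gene of the cyclin-dependent kinase inhibitor p27, on the same strand. Lockd had 13.7, 14.1 and 11.3 CPM in control and 18.4, 15.6 and 16.7 CPM with idelalisib. The groups did not overlap, but the rise was small (log2 fold change 0.37 ± 0.14, adjusted p = 0.0395). The call was lost in 8 of the alternatives, with an adjusted p of 0.0543 in DESeq2 and 0.0566 with the replicate block. Leaving out control replicate 1, 2 or 3 gave 0.0812, 0.0543 and 0.177, and leaving out idelalisib replicate 1 or 3 gave 0.123 and 0.0501. Cdkn1b fell from 247 ± 8.73 to 147 ± 8.13 CPM (SD, n = 3), the opposite direction to Lockd.

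Trp53cor1, known as lincRNA-p21 and placed beside Cdkn1a, had 2.69, 1.98 and 2.29 CPM in control and 3.55, 1.98 and 2.93 CPM with idelalisib. The groups overlapped and it was not called (adjusted p = 0.439). Cdkn1a fell from 307 ± 18.7 to 227 ± 30.8 CPM (SD, n = 3), by 0.43 on the log2 scale (adjusted p = 0.00263).

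H19, the maternally expressed imprinted RNA of the Igf2 locus and the precursor of miR-675, was the 1 member among 10 listed RNAs of imprinted loci. It lies at chr7:142575529-142578143 on the minus strand. H19 had 0.751, 0.925 and 0.643 CPM in control and 3.88, 5.81 and 4.3 CPM with idelalisib. The lowest idelalisib library was above the highest control library by a wide margin, and the rise was 5.95-fold (log2 fold change 2.57 ± 0.30, adjusted p = 1.39e-05). H19 reached 1 CPM in the idelalisib group only.

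From the X inactivation centre and other X-linked loci, 2 of 9 listed RNAs were members, and 4 members in all lie on the X chromosome. Ftx had 6.63, 5.42 and 4.72 CPM in control and 6.91, 5.31 and 5.38 CPM with idelalisib, with overlap (adjusted p = 0.811). Jpx, an activator of Xist, had 1.44, 1.06 and 1.29 CPM in control and 1.78, 2.83 and 1.79 CPM with idelalisib. The groups of Jpx did not overlap, but the difference was not called (log2 fold change 0.75 ± 0.33, adjusted p = 0.0797); it was called with scaling by library size alone (adjusted p = 0.0365).

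**Figure D2:**
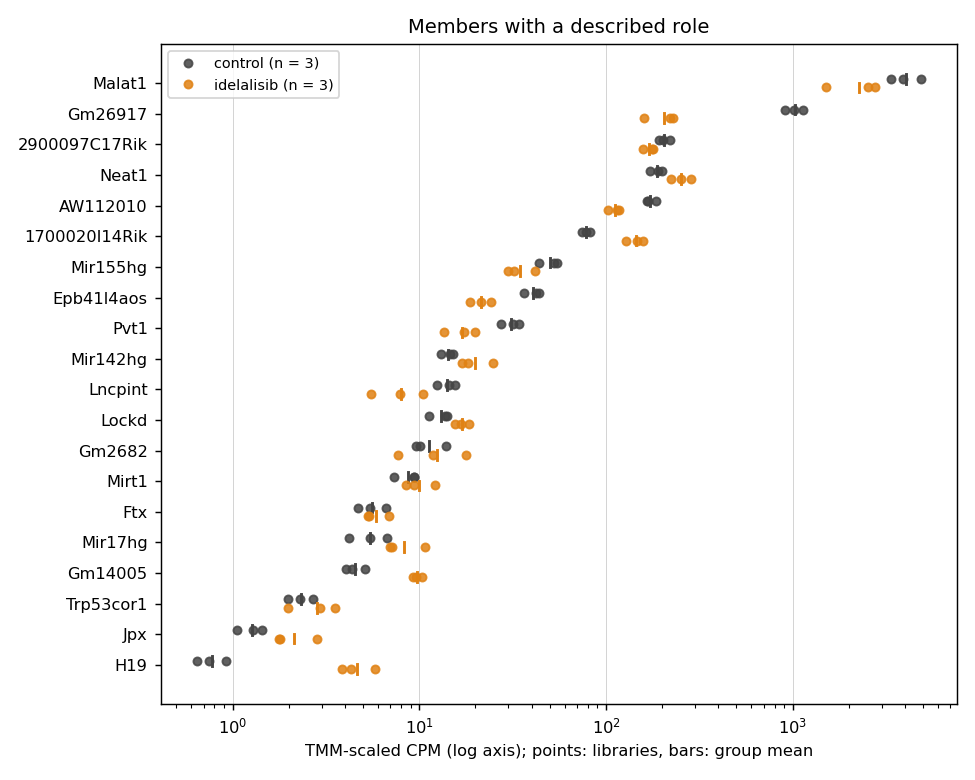
TMM-scaled CPM (log axis) of each library for the 20 members on the lists of described RNAs, in order of their control mean, with dark points for control, orange points for idelalisib and bars for group means (n = 3). H19 and Gm14005 show the idelalisib libraries to the right of the control libraries, and Gm26917 and Pvt1 to the left.

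The most abundant members included several of no established name. AU020206, on chromosome 7 at 75769038-75782099, was the fourth most abundant by CPM. It read 571, 552 and 566 CPM in control and 215, 260 and 211 CPM with idelalisib. The control libraries lay within a narrow band, and the fall of AU020206 was 2.46-fold (log2 fold change -1.30 ± 0.09, adjusted p = 1.19e-07).

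Gm19585 is a long locus on the plus strand of chromosome 17. Its nearest tested protein-coding gene is Satb1, the gene of a chromatin organiser of T cells, on the minus strand with a start 153125 bases away. Gm19585 had 116, 119 and 115 CPM in control and 71.8, 73.8 and 78.2 CPM with idelalisib, each group tight and apart from the other (log2 fold change -0.64 ± 0.079, adjusted p = 2.23e-05). Satb1 moved the same way, from 1706 ± 39.9 to 1040 ± 54 CPM (SD, n = 3; log2 fold change -0.71, adjusted p = 5.94e-06).

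Gm34084 had 111, 98 and 101 CPM in control and 98.9, 73.3 and 91.4 CPM with idelalisib, and the groups overlapped (adjusted p = 0.0854; 0.0494 without idelalisib replicate 1, with a log2 fold change of -0.32). Gm42047 was the most uneven: 477, 1502 and 1230 CPM in control and 335, 1330 and 605 CPM with idelalisib. Replicates within a group differed more than the groups did (log2 fold change -0.50 ± 0.73, adjusted p = 0.629). Of its words 72.3% were shared with other entries, the most with Gm48362. The log2 fold change of Gm42047 ran from -1.18 to -0.13 over the alternatives, and with the replicate block its adjusted p was 0.0113.

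Gm26917 stands apart in kind. It lies at chr17:39843013-39846341 on the plus strand, beside the ribosomal RNA entry CT010467.1 at chr17:39846353-39848827, and was the 1 member of 5 listed entries from ribosomal RNA repeats. Gm26917 had 1018, 915 and 1137 CPM in control and 160, 221 and 229 CPM with idelalisib. Every idelalisib library was far below every control library, a 5.03-fold fall (log2 fold change -2.33 ± 0.13, adjusted p = 1.48e-07). The neighbouring entry CT010467.1 fell less, from 381 ± 44.7 to 272 ± 38.9 CPM (SD, n = 3; log2 fold change -0.48 ± 0.11, adjusted p = 0.00311). How much of either comes from ribosomal RNA carried through the poly(A) selection was not tested.

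Per kilobase of transcript, the control levels were 579 CPM for Malat1, 307 for Gm26917, 225 for AW112010 and 177 for AU020206. With idelalisib they were 324, 61.1, 144 and 71.6 CPM per kilobase. Gm26917, second to Malat1 among these 4 RNAs in control, was the lowest of the 4 with idelalisib.

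Among members at moderate levels, Gm17767 and AI504432 rose and are named after their values were seen. Gm17767 had 41.9, 46.7 and 44.9 CPM in control and 86.1, 111 and 89.5 CPM with idelalisib (log2 fold change 1.10 ± 0.10, adjusted p = 2.19e-06). AI504432 had 29.2, 29.5 and 31 CPM in control and 46.9, 55.2 and 41.4 CPM with idelalisib (log2 fold change 0.68 ± 0.11, adjusted p = 2.39e-04). In both the idelalisib libraries were all higher.

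The 10 largest rises among members without overlap between groups were led by 3300005D01Rik, on chromosome 17. 3300005D01Rik had 0.125, 0.594 and 0.143 CPM in control, which are 2, 9 and 2 reads, and 2.96, 1.91 and 2.63 CPM with idelalisib, which are 45, 27 and 44 reads. Its rise was 8.49-fold (log2 fold change 3.09 ± 0.49, adjusted p = 1.84e-04). The nearest tested protein-coding gene, Snx9, a membrane-remodelling sorting nexin whose start is 42672 bases away, went from 39 ± 1.7 to 82.3 ± 2.21 CPM (SD, n = 3), a rise of 1.07 on the log2 scale.

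AC117662.4 lies near Casr, the gene of the calcium-sensing receptor, on the same strand with starts 36356 bases apart. AC117662.4 had 0.626, 0.33 and 0.143 CPM in control and 1.65, 2.05 and 1.73 CPM with idelalisib (log2 fold change 2.25 ± 0.46, adjusted p = 0.00123). Casr had 1.69, 1.52 and 1.72 CPM in control and 7.24, 6.58 and 9.32 CPM with idelalisib (log2 fold change 2.23, adjusted p = 4.82e-06). Both were higher in all idelalisib libraries and by a similar fold.

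Gm12532 lies 49751 bases from the start of Il21, the gene of a helper T cell cytokine. Gm12532 had 1.69, 0.396 and 1.64 CPM in control and 2.9, 10.9 and 4.18 CPM with idelalisib. Its idelalisib libraries were all higher but ranged widely, and the log2 fold change of 2.25 ± 0.65 had an adjusted p of 0.0275. The call was lost with the replicate block (adjusted p = 0.118), without control replicate 1 (0.0714), without control replicate 3 (0.0745) and without idelalisib replicate 3 (0.0635). Il21 rose by 0.40 on the log2 scale, from 171 ± 21.9 to 225 ± 19.7 CPM (SD, n = 3).

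The other large rises were Gm30717, Gm33091, 1700096K18Rik, Gm47467, 6030443J06Rik and BC043934, with log2 fold changes from 2.26 down to 1.83 and idelalisib means of 1.56 to 2.79 CPM. Gm47467 shared 80.8% of its words with other entries, the most with the zinc finger gene Zfp825, so reads of these entries may be mixed. Zfp825 rose by 0.95 on the log2 scale. The start of 6030443J06Rik is 3 bases from that of Orc5, a subunit of the origin recognition complex, on the opposite strand. BC043934 had 3.55 CPM in idelalisib replicate 1 and 1.06 and 1.61 CPM in the others; without that library its log2 fold change was 1.22 in place of 1.83 and its adjusted p 0.075. Apart from Gm12532, all 10 reached 1 CPM in the idelalisib group only, so the threshold let them in through the group in which they are high.

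**Figure D3:**
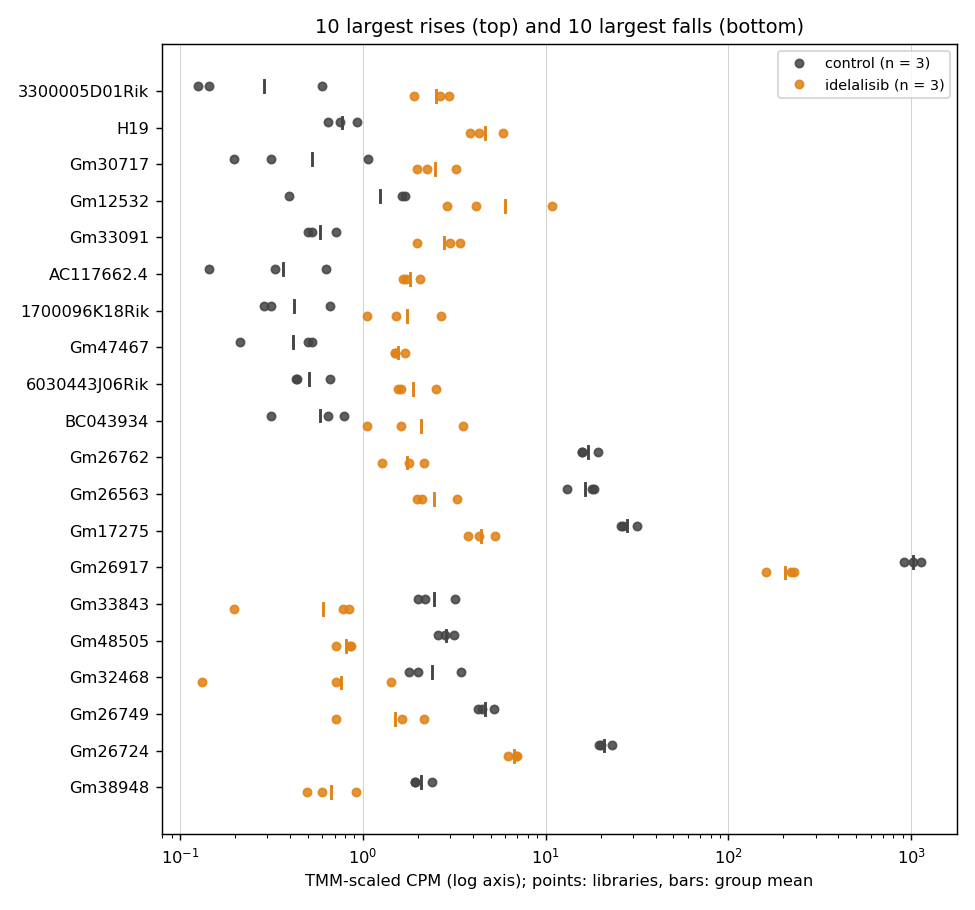
TMM-scaled CPM (log axis) of each library for the 10 called members with the largest rise (top) and the 10 with the largest fall (bottom) whose groups do not overlap, with dark points for control, orange points for idelalisib and bars for group means (n = 3). The rising members lie mostly under 1 CPM in control, while Gm26762, Gm26563, Gm17275 and Gm26724 start between 13.1 and 31.6 CPM in control and fall to under 7 CPM.

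Among the 10 largest falls, the SE ran from 0.13 to 0.22 for Gm26762, Gm26563, Gm17275, Gm26917 and Gm26724. For the other falls it ran from 0.31 to 0.53, and for the largest rises from 0.30 to 0.65. Of the 10 falls, 6 belong to RNAs that lie on the opposite strand of a protein-coding gene. With the strand setting not given, reads of these RNAs and of that gene cannot be told apart where they overlap. Gm26762, on the plus strand at chr7:34224755-34230236, lies across from Gpi1, the glycolytic enzyme glucose-6-phosphate isomerase. Gm26762 had 19.4, 15.9 and 15.9 CPM in control and 2.17, 1.27 and 1.79 CPM with idelalisib. The groups lay far apart, a 9.7-fold fall (log2 fold change -3.28 ± 0.20, adjusted p = 5.19e-08). Gpi1 fell less, from 1241 ± 32.7 to 751 ± 114 CPM (SD, n = 3; log2 fold change -0.72, adjusted p = 5.76e-05). Of the exonic bases of Gm26762, 14% overlap exons of Gpi1.

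Gm26563 lies opposite Suz12, a subunit of the Polycomb repressive complex, on chromosome 11. Gm26563 had 18.4, 13.1 and 17.9 CPM in control and 2.11, 3.26 and 1.97 CPM with idelalisib, a 6.77-fold fall without overlap (log2 fold change -2.76 ± 0.22, adjusted p = 4.39e-07). Suz12 had 325 ± 12.6 CPM in control and 280 ± 49.8 CPM with idelalisib (SD, n = 3) and was not called (adjusted p = 0.123).

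Gm17275 lies opposite H3f3a, which encodes the histone variant H3.3, on chromosome 1. Gm17275 had 31.6, 26 and 26.4 CPM in control and 5.27, 4.32 and 3.76 CPM with idelalisib, a 6.3-fold fall without overlap (log2 fold change -2.66 ± 0.16, adjusted p = 3.36e-08). H3f3a moved the other way, from 77.8 ± 3.65 to 97.3 ± 8.79 CPM (SD, n = 3; log2 fold change 0.32, adjusted p = 0.00932).

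Gm26724 lies opposite Lemd2, an inner nuclear membrane protein gene. Gm26724 had 20, 23.1 and 19.7 CPM in control and 6.98, 6.23 and 6.87 CPM with idelalisib, 2 tight and separate groups (log2 fold change -1.64 ± 0.14, adjusted p = 8.7e-07). Lemd2 fell from 111 ± 6.62 to 77.2 ± 17.7 CPM (SD, n = 3), by 0.52 on the log2 scale. Gm26749, opposite the ubiquitin-conjugating enzyme gene Birc6, fell by 1.64 and Gm38948, opposite the chromatin remodelling subunit gene Bicra, by 1.62 on the log2 scale, and neither Birc6 nor Bicra was called.

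The remaining falls were Gm33843, Gm48505 and Gm32468 beside Gm26917. Gm33843 and Gm48505 overlap each other on the same strand of chromosome 10. Gm33843 had 3.19, 2.18 and 2 CPM in control and 0.197, 0.779 and 0.836 CPM with idelalisib. Gm48505 had 2.82, 3.17 and 2.57 CPM in control and 0.856, 0.85 and 0.717 CPM with idelalisib. Both fell without overlap, by 2.01 and 1.82 on the log2 scale, and Btg1, the nearest tested protein-coding gene and an antiproliferative factor of quiescent lymphocytes, fell by 0.84, from 694 ± 48.9 to 389 ± 26.8 CPM (SD, n = 3). Gm32468 had 2, 1.78 and 3.43 CPM in control and 0.132, 1.42 and 0.717 CPM with idelalisib, close to overlap (adjusted p = 0.0201). The call of Gm32468 was lost without control replicate 3 (adjusted p = 0.0925), idelalisib replicate 1 (0.0559) or idelalisib replicate 3 (0.0826).

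RNAs on the opposite strand of a tested protein-coding gene were then taken as a class, which was singled out after these values were seen and so is described without a test. It held 49 members, of which 15 fell (30.6%, beside 22.4% of all genes tested) and 4 rose (8.16%, beside 22.2%), with a median log2 fold change of -0.45. The 202 members that overlap no tested protein-coding gene had 24 that fell (11.9%) and 65 that rose (32.2%), with a median of 0.41. Among members that reached 1 CPM in both groups, 13 of 42 in the opposite-strand class fell and 2 rose, and of 160 that overlap no tested protein-coding gene 20 fell and 44 rose. The 10 members on the same strand as such a gene had 4 that fell and 2 that rose. The protein-coding genes opposite the 49 had a median log2 fold change of -0.009; 12 fell and 6 rose.

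Of the 15 opposite-strand members that fell, 6 had a protein-coding partner that also fell, 1 a partner that rose (H3f3a) and 8 a partner that was not called. Those 6 partners were Gpi1, Lemd2, Gnptab, Sec63, Hivep2 and Ino80d. In all 15 the member's log2 fold change was further below 0 than that of its partner. The 15 were picked for a called fall and their partners were not, so the choice favoured this order and nothing is drawn from it. Among the 4 that rose, Gm26637 lies opposite Eif2ak2, the interferon-induced kinase PKR. Gm26637 had 0.688, 0.727 and 0.286 CPM in control and 1.78, 1.7 and 1.37 CPM with idelalisib (log2 fold change 1.48 ± 0.41, adjusted p = 0.00932). Eif2ak2 rose from 23.2 ± 1.7 to 83.4 ± 13.7 CPM (SD, n = 3; log2 fold change 1.84), and RefSeq lists Gm26637 as protein-coding.

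Gm16548, opposite the P-selectin gene Selp, had 0.939, 0.198 and 0.929 CPM in control and 2.57, 2.41 and 1.73 CPM with idelalisib (log2 fold change 1.69 ± 0.44, adjusted p = 0.00657). Its partner Selp rose by 1.70 on the log2 scale, and 57.1% of the exonic bases of Gm16548 overlap exons of Selp or F5. Both Gm16548 and Gm26637 reached 1 CPM in the idelalisib group only, the group in which they are high. 9330175E14Rik, which starts 747 bases from Nlrc5, the transactivator of MHC class I genes, had 8.01, 5.75 and 6.72 CPM in control and 15.8, 13.6 and 14.4 CPM with idelalisib (log2 fold change 1.09 ± 0.16, adjusted p = 1.02e-04). Nlrc5 itself was not called (log2 fold change 0.03, adjusted p = 0.832). The fourth, Gm17354, rose by 1.14 on the log2 scale while its partner Cc2d1b was not called.

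**Figure D4:**
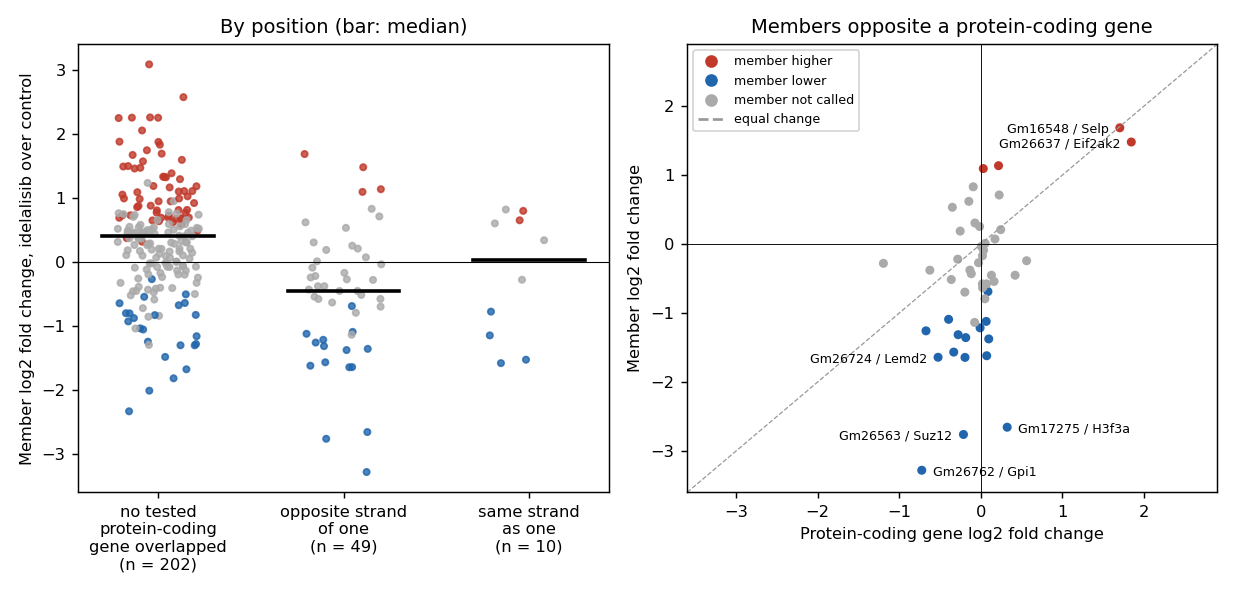
Left, log2 fold change (idelalisib over control) of the 261 members by their position relative to tested protein-coding genes, with the median as a bar. Right, log2 fold change of the 49 opposite-strand members against that of the protein-coding gene opposite them. The 15 blue points, picked for a called fall, lie below the dashed line of equal change, with Gm26762, Gm26563 and Gm17275 lowest.

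Neighbouring protein-coding genes were compared by sign, as a description. A tested protein-coding gene started within 10 kb of 90 members, and its log2 fold change had the same sign as the member's for 49, or 54.4%. Over 3413 protein-coding genes with such a neighbour the share was 53.6%. Where both were called, 15 of 19 member pairs went the same way (78.9%), beside 60.5% of 688 protein-coding pairs. At 50 kb these shares were 82.2% of 45 and 61.2% of 1679. Pairs share libraries and often a chromatin domain, and no test was made.

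Head-to-head starts within 2 kb of a protein-coding gene on the opposite strand marked 42 members, of which 13 rose (31%, beside 22.2% of all genes tested) and 3 fell (7.14%, beside 22.4%), with a median of 0.46. The other 219 had 58 that rose (26.5%) and 40 that fell (18.3%), with a median of 0.21. Neither class was restricted to members that reached 1 CPM in both groups, and of 37 members let in through idelalisib only 23 rose. Some close pairs, named after their values were seen, moved together. Gm26799 starts 91 bases from Rad18, a DNA damage tolerance ubiquitin ligase gene, and had 3.69, 2.31 and 1.79 CPM in control and 6.65, 3.68 and 5.91 CPM with idelalisib (log2 fold change 1.05 ± 0.29, adjusted p = 0.00975), with overlap at 1 library. The call of Gm26799 was lost without control replicate 3 (adjusted p = 0.0507) or idelalisib replicate 1 (0.0545). Rad18 rose by 0.40 on the log2 scale.

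4933406I18Rik starts 120 bases from Pde3b, a phosphodiesterase gene. 4933406I18Rik had 2.06, 2.97 and 2.86 CPM in control and 0.724, 1.42 and 1.37 CPM with idelalisib (log2 fold change -1.16 ± 0.34, adjusted p = 0.0119). Pde3b fell with it, by 0.61 on the log2 scale. 4930480K23Rik, 243 bases from Chmp7, had the opposite sign to its neighbour: its log2 fold change was 1.74 and that of Chmp7 -0.26, both called.

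2310001H17Rik lies on the same strand as Cd69, an early activation and tissue-retention receptor, with starts 36711 bases apart. 2310001H17Rik had 15.5, 15.3 and 14.7 CPM in control and 26.7, 28.7 and 24.4 CPM with idelalisib, separate groups (log2 fold change 0.81 ± 0.12, adjusted p = 7.94e-05). Cd69 rose by 0.84 on the log2 scale, from 48.3 ± 1.75 to 86.7 ± 5.51 CPM (SD, n = 3).

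Promoter windows of 300 bases, 250 before and 50 after a transcript start, were found in RefSeq for 114 members (134 windows). Motifs were searched on both strands. The E box CACGTG was in 9.62% of 52 windows of members that rose, 5.26% of 19 of members that fell and 4.76% of 63 of members not called, beside 7.15% of all 32851 windows. The E2F-like word TTTNNCGC was in 7.69%, 5.26% and 1.59%, beside 5.17%. The hypoxia element core GCGTG was in 25%, 36.8% and 23.8%, beside 32.4%, and the forkhead word GTAAACA in 3.85%, 5.26% and 0%, beside 3.65%. The core of the interferon-stimulated response element was in 0 of the windows of members that rose, 0 of those that fell and 1.59% of the rest, beside 3.44% of all. The gamma-activated site TTCNNNGAA was in 1.92%, 5.26% and 4.76%, beside 8.3%. With this few windows each count is 13 or less for a class that changed, and a match is a description of letters.

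The windows of 3300005D01Rik, the largest rise, and of 1700020I14Rik, an abundant RNA that rose 1.84-fold, are printed from RefSeq (GRCm38.p6), in the direction of transcription. Capitals mark an E box that begins 1 base before the annotated start of 3300005D01Rik and an E2F-like word that begins 1 base after that of 1700020I14Rik.
3300005D01Rik, chr17:5798407-5798706, plus strand: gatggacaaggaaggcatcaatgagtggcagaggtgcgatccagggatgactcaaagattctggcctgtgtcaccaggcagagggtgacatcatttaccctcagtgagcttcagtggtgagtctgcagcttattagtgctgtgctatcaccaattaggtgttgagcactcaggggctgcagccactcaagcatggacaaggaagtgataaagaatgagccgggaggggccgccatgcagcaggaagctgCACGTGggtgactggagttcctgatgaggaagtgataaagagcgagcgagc
1700020I14Rik, chr2:119594046-119594345, plus strand: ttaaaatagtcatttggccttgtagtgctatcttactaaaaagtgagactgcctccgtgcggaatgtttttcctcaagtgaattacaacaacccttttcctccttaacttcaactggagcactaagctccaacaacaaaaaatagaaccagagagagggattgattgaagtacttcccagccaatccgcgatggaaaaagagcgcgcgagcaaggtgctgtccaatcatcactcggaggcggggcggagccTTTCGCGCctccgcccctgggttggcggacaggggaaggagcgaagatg

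Markers of other cell types were measured beside these results. The summed CPM of 7 CD4 T cell markers was 2322 to 2494 in control and 2142 to 2551 with idelalisib. Among these 7, Cd3e and Cd3g rose and Lck fell. The 10 B cell markers summed to 24.1 to 24.9 in control and 29 to 36.7 with idelalisib, and 6 of the 8 tested rose. The 8 myeloid markers summed to 17.4 to 19.4 and 11 to 14.3, and the 1 tested, Cd68, fell. The 4 NK cell markers went from 2.82 to 3.43 up to 7.18 to 10.9, carried by Eomes, with the defining marker Ncr1 at 0 in all libraries. The 5 dendritic markers summed to 11.2 to 12.7 and 8.3 to 11.5, with Siglech at 0 and none called. The 2 CD8 markers summed to 4.43 to 7.86 and 7.24 to 9.5, and Cd8a rose. The 5 erythroid or platelet markers summed to 1.72 to 2.51 and 3.82 to 6.58, and Pf4 rose. Their part in the lincRNA differences was not tested. In bulk RNA, fewer cells of a type and less RNA per cell cannot be told apart.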

How the data were processed

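Poly(A) RNA of 6 libraries was sequenced, 3 control and 3 idelalisib, and the titles gave each library's group and replicate number. The authors deposited raw counts of reads per gene, with symbol, biotype and position, in 1 table. The tools, per the submitters' processing notes, were featureCounts 1.5.0-p3, HISAT2 2.0.5 and fastp, on mm10. The sources used here do not give the strand setting, the handling of reads with several matches or the annotation release.

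All genes were fitted together in edgeR 4.0.16 (R 4.3.3) with a model of group alone, filterByExpr (minimum count 10, minimum total 15), TMM scaling and the robust quasi-likelihood F test, which left 14530 genes. P-values were adjusted over all of them. The SE is the log2 fold change over the square root of F. The fit was tested on simulated data. Replicates differed beyond sampling noise (chi-square per degree of freedom 4.63 to 18.2), so none was a duplicate.

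The text names the 10 largest rises and falls without overlap, the 10 most abundant members and every member on lists of described RNAs; others are said to be named after their values were seen, as are the partners, neighbours and microRNA-bearing members. Members and lists were chosen with earlier results of these data known. Overlaps and shared words came from GENCODE M21, and sequences from RefSeq (GRCm38.p6). Alternatives were other scalings, filters and thresholds, DESeq2 1.42.0, limma-voom (limma 3.58.1), a replicate block and leaving out each library.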

Additional observations from a re-analysis of the deposited data

How the results depend on the processing

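Scaling, filter, tool and left-out libraries changed the counts of members called by less than 1.5 times, apart from the settings named next. They ran from 57 to 92 that rose and from 38 to 48 that fell over other scalings, DESeq2, limma-voom, no filter and leaving out each library, and no call turned its direction. With library size alone, 92 rose and 41 fell, and the all-gene median on the log2 scale moved from 0.009 to 0.16. Of the 114 calls, 79 were made in all 6 fits without 1 library. Requiring 50 counts in 3 libraries left 121 members, of which 43 rose and 27 fell. At a log2 fold change of at least 1, 37 rose, and among 161 members with a mean of at least 2 CPM 47 rose. Of the 121 members whose span overlaps no other gene 36 rose and 11 fell. Among 163 without exonic overlap, a setting chosen after seeing the data, 46 rose and 23 fell. In the opposite-strand class, also run after seeing the data, 7 rose with library size alone, and 1 rose and 8 fell with the filter of 50 counts. All of these settings test fewer members or set a stricter threshold, apart from library size alone. Without the members that overlap a gene, 29.8% rose and 9.09% fell, beside 27.2% and 16.5% of all members, so the share that fell also changed; the cause was not tested.

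With the replicate number as a block, 64 members rose and 44 fell, and 107 of the calls were made again. Deviations of same-numbered libraries correlated at 0.0764, -0.132 and -0.101, so the numbers were not taken to pair the cultures, and not every library correlated best with its own number.

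Of 801 values of 59 named members under alternatives, 744 kept their direction and side of the threshold, 38 lost and 16 gained a call, and 3 turned sign: Ftx to -0.042 without control replicate 3 and -0.054 without idelalisib replicate 1, and Gm2682 to -0.19 without idelalisib replicate 2. None of these 3 was a called value, and without 1 library the log2 fold change ran from -0.054 to 0.205 for Ftx and from -0.19 to 0.415 for Gm2682.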
